A study of Caenorhabditis elegans with 2 samples.

Results

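The 6 ONECUT homeobox genes of Caenorhabditis elegans, namely ceh-38, ceh-48, ceh-49 and the X-linked ceh-39, ceh-21 and ceh-41, were examined as targets of a member of their own family, CEH-39. They are 6 of 19973 protein-coding genes on the nuclear chromosomes. For each gene, every ChIP-seq peak was taken whose summit lay in the gene or within 10 kb of either end. Because ceh-41, ceh-21 and ceh-39 adjoin on X and share peaks, they were read as 1 locus, which left 4 loci. The samples were 2 biological replicates of chromatin immunoprecipitation of eGFP-tagged CEH-39 from whole embryos of mixed stage and mixed sex. Both came from strain OP169, genotype unc-119(ed3) III; wgIs169, so the unc-119 mutation and the integrated ceh-39 transgene were present in every animal. There was no second group, and the sources used here give neither the promoter nor the extent or copy number of the transgene. At X coordinates, DNA of the endogenous ceh-39 region and any copy of it in the transgene cannot be told apart.

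ONECUT proteins bind DNA through a cut domain joined to a homeodomain. ATCGAT is read here as the ONECUT core, and the related ATTGAT was searched for as well. In C. elegans, CEH-39 is an X signal element, a protein whose dose reports the number of X chromosomes by repressing the sex-determination switch gene xol-1 in the early embryo. CEH-38 and CEH-48 are known for a joint role with other CUT homeobox proteins in the expression of pan-neuronal genes.

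Peaks were read from 4 deposited lists in build ce11, and all positions are numbered from 1. The optimal list thresholded by the irreproducible discovery rate (IDR), a measure of how well peak ranks match between lists, held 1244 peaks. Of these, 1176 had a peak in both replicates' relaxed lists, 62 had none in replicate 2 and 6 had none in replicate 1. A place in the IDR list therefore did not require a high rank in both replicates. The relaxed lists, which include background by construction, held 30000 peaks for both replicates pooled, 30000 for replicate 1 and 27014 for replicate 2. Each peak carried the authors' signal value, on a scale that no label or file states, and rank 1 is the highest signal in a list. The median signal value was 108 in the IDR list, 14.1 in replicate 1 and 11.5 in replicate 2. A q-value under 0.05 was reached by 3958 peaks of replicate 1 and by 790 of replicate 2. Read counts were not used, so the depth is unknown. "Strongest peaks" below are the 1244 of highest signal in a replicate, as many as the IDR list holds.

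In the IDR list, 4 of the 6 genes had a summit within 10 kb, beside 26.9% of all protein-coding genes. Only 4 peaks made up that count. ceh-39 and ceh-21 shared 3 of them, of which 2 were also within 10 kb of ceh-41, and ceh-38 had the remaining 1. By locus the count was 2 of 4. For the X locus, with a window of 29565 bp, 426 of 597 tiles of that length along the rest of X held no IDR summit. The summit at ceh-38 lay inside the gene, at its 5′ end. The 3 on X flanked the gene cluster and none lay in a gene of the cluster. Neither ceh-48 nor ceh-49 had an IDR summit in this range. No test applies to these counts, since there was 1 group of samples and the genes were named with earlier results of these data known.

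The reference sequence of build ce11 (WBcel235, RefSeq), read on the plus strand, is shown for the 4 summits because the peaks differed in whether they held the ONECUT core. Capitals mark ATCGAT, which is its own reverse complement. The X windows run 50 bp to either side of the summit, and the ceh-38 window is 30 bases around the core nearest its summit.
X, upstream of ceh-39, chrX:1857927-1858027: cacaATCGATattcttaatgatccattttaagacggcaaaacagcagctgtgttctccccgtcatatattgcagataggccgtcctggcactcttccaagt
X, in a tRNA gene upstream of ceh-39, chrX:1858794-1858894: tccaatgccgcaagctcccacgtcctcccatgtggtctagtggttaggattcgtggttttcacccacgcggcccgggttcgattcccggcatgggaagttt
X, between ceh-41 and T26C11.4, chrX:1845699-1845799: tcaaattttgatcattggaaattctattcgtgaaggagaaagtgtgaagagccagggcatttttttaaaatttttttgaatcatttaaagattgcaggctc
ceh-38, 5′ end, chrII:6951668-6951697: gtggccatcagtATCGATcggtgtctagtc

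Within 50 bp of the summit, 2 of these 4 peaks held ATCGAT, beside 17.4% of all 1244 IDR peaks (217 peaks). That share is over IDR peaks of every signal value and is not matched to the ranks of these 4. The core began 3 bp before the ceh-38 summit, whereas at the X summit 1805 bp upstream of ceh-39 it stood 41 bp away, from 1857931 to 1857936. None of the 4 windows held ATTGAT on either strand, although the replicate 2 summit at ceh-38, at 6951691, had it within 50 bp. The GC content of the X windows was 44.6% at the core-bearing peak, 58.4% at the tRNA gene and 31.7% beside T26C11.4. A match describes the letters and does not show a bound site.

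ceh-39 itself (WBGene00000460, X, 1853874 to 1856172, minus strand) encodes the factor that was immunoprecipitated. The 3 ONECUT genes of X and the gene T26C11.9 lie head to tail on the minus strand, in the order ceh-39, T26C11.9, ceh-21 (WBGene00000444, 1848779 to 1852736) and ceh-41 (WBGene00000462, 1846608 to 1848675). The gaps between neighbours in this run were 24, 101 and 103 bp. The start of ceh-39 is therefore at the upstream end of the run, and the end of ceh-41 faces the start of T26C11.4.

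The peak 1805 bp upstream of ceh-39 had a summit at 1857977, in intergenic sequence, and ceh-39 had the nearest protein-coding start. Its signal value was 267 in replicate 1 (rank 30) and 29.6 in replicate 2 (rank 515), with q-values of 0.000225 and 0.0126. Relative to the median of its own list, the signal was 18.9 times as high in replicate 1 and 2.57 times in replicate 2. Both replicates thus called the peak, and its place in the ranking was higher in replicate 1. The replicate summits stood 1 and 79 bp from the IDR summit.

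The neighbouring peak, with its summit at 1858844, had the opposite order by rank, but not by signal value or its ratio to the list median. Its signal value was 198 in replicate 1 (rank 88) and 96.3 in replicate 2 (rank 17), which is 14.0 and 8.38 times the list medians. The summit fell inside a tRNA gene, WBGene00023152 (1858819 to 1858890, plus strand), 2672 bp upstream of ceh-39, and the nearest protein-coding start was that of T26C11.8, 1878 bp away. By pooled signal this peak ranked 8 and the core-bearing peak 9 among the 218 IDR peaks on X.

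Between ceh-41 and T26C11.4, the IDR peak of X with the lowest signal at the locus had its summit at 1845749, 859 bp beyond the end of ceh-41 and 203 bp upstream of T26C11.4. Its signal value was 82.9 in replicate 1 (rank 721) and 26.3 in replicate 2 (rank 719), with q-values of 0.000225 and 0.0383. In the pooled list its signal value was 129 and its rank 414, and it ranked 77 among the IDR peaks on X. The replicates therefore placed this peak alike by rank, at 5.87 times the list median in replicate 1 and 2.29 times in replicate 2. Its position in the intergenic stretch was much closer to the start of T26C11.4 than to that of ceh-41, which lay 2926 bp away.

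**Figure D1:**
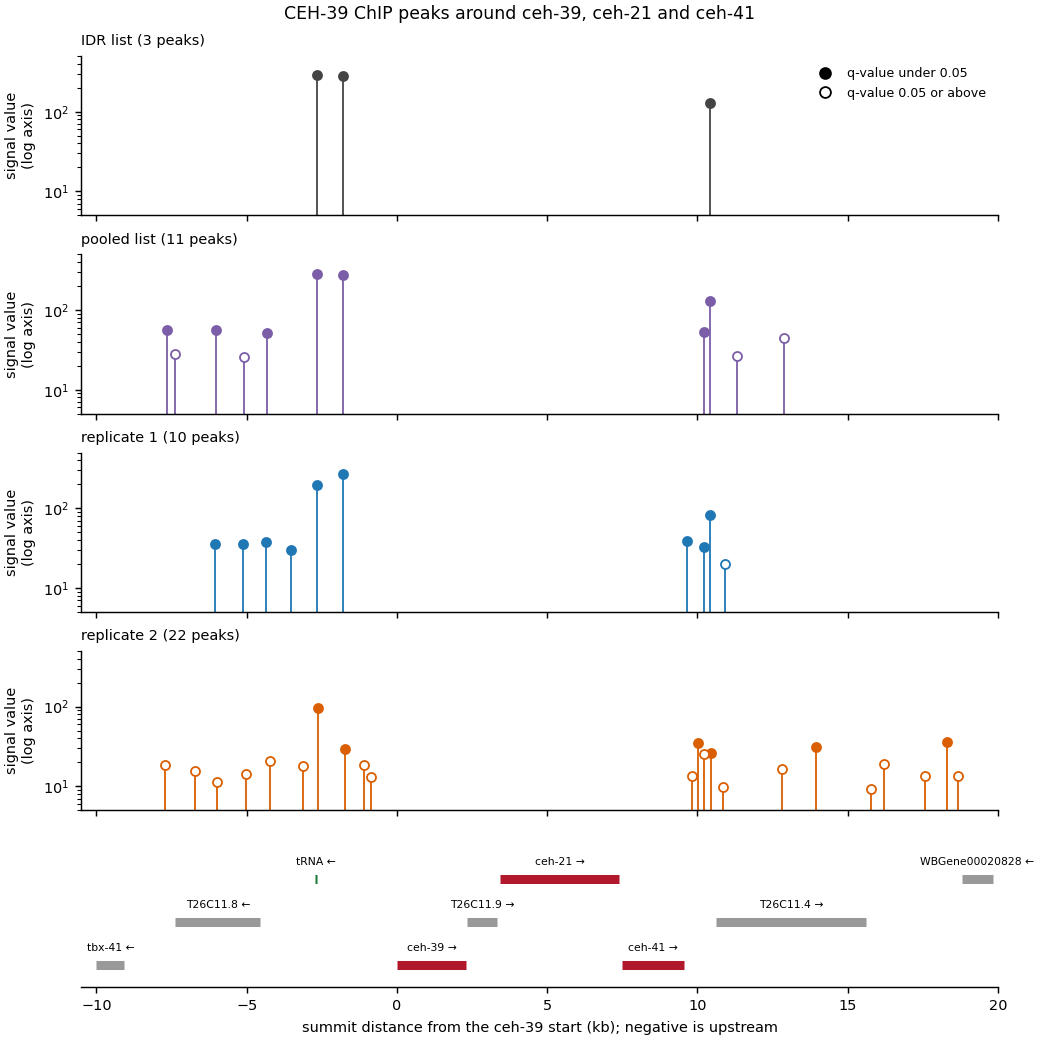
Signal value (log axis) of every peak within 10 kb of the ceh-39, ceh-21 and ceh-41 run, by list, against distance of the summit from the ceh-39 start in kb (negative is upstream); filled points have a q-value under 0.05 and arrows give gene direction. The tallest point of each list stands upstream of ceh-39, and no point in any list falls between 0 and 9 kb, where the 3 ONECUT genes lie.

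The bodies of the X genes held no summit in any list. Within the 10 kb window of the locus there were 11 pooled summits, 10 of replicate 1 and 22 of replicate 2, and all lay outside ceh-39, ceh-21 and ceh-41. Across all protein-coding genes, 43.9% had no summit inside in the pooled or either replicate list, and 4 of the 6 ONECUT genes were in this class, the X genes and ceh-49. The distance between the neighbouring summits on either side of ceh-39 was 12016 bp in the pooled list, 11458 bp in replicate 1 and 10687 bp in replicate 2. The median gap between neighbouring summits on X was 1952, 1895 and 2234 bp in those lists. Gaps at least as long made up 4.86%, 7.22% and 4.90% of all gaps on X. The peaks of the locus thus stood on both flanks of a stretch without peaks that was longer than most gaps on X in each list. The stretch was picked for the genes it spans. The shares count gaps, so they do not give the share of X that lies in gaps this long.

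Counted per gene, ceh-39 and ceh-21 each had 3 IDR summits within 10 kb and ceh-41 had 2, against a mean of 0.34 over all protein-coding genes. At least 3 were found at 1.09% of genes. Among the strongest peaks of replicate 1 the counts were the same, 3, 3 and 2. Over all protein-coding genes, 26.8% had at least 1, the 95th percentile was 2 and the maximum 5. Among the strongest of replicate 2 the counts were 5 for ceh-39, 6 for ceh-21 and 6 for ceh-41. There 25.1% of all protein-coding genes had at least 1, the 95th percentile was 2 and the maximum 6. In the whole relaxed lists, ceh-39 had 10 summits of replicate 1, which 25% of genes reached, and 15 of replicate 2, which 2.01% of genes reached.

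Peaks with a q-value under 0.05 were dense at the X locus in both replicates. Its window of 29565 bp was set beside 597 consecutive tiles of the same length along the rest of X. Replicate 1 had 9 such peaks in the window, against a mean of 0.99 per tile and a maximum of 7, so that 0.0% of tiles reached 9. Replicate 2 had 6, against a mean of 0.238 and a maximum of 3, and again 0.0% of tiles reached that number. The window held 0.227% of all peaks under this threshold in replicate 1 and 0.759% in replicate 2. The transgene's part in this density was not tested.

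The replicates differed when all relaxed peaks were counted. The 10 summits of replicate 1 were reached in 32.2% of tiles, against a mean of 7.67, and the 22 of replicate 2 in 0.168% of tiles, which is 1 tile, against a mean of 8.48. Of the 10 peaks of replicate 1, 9 were overlapped by a peak of replicate 2, beside 37.8% over the whole list. Of the 22 peaks of replicate 2, 10 were overlapped by a peak of replicate 1, beside 40.1%. These shares are matched neither for signal nor for the density of peaks. A q-value under 0.05 was held by 9 of the 10 peaks of replicate 1, beside 3958 of the 30000 in its list. On the ceh-41 side, 7 summits of replicate 2 lay farther downstream than any summit of replicate 1.

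**Figure D2:**
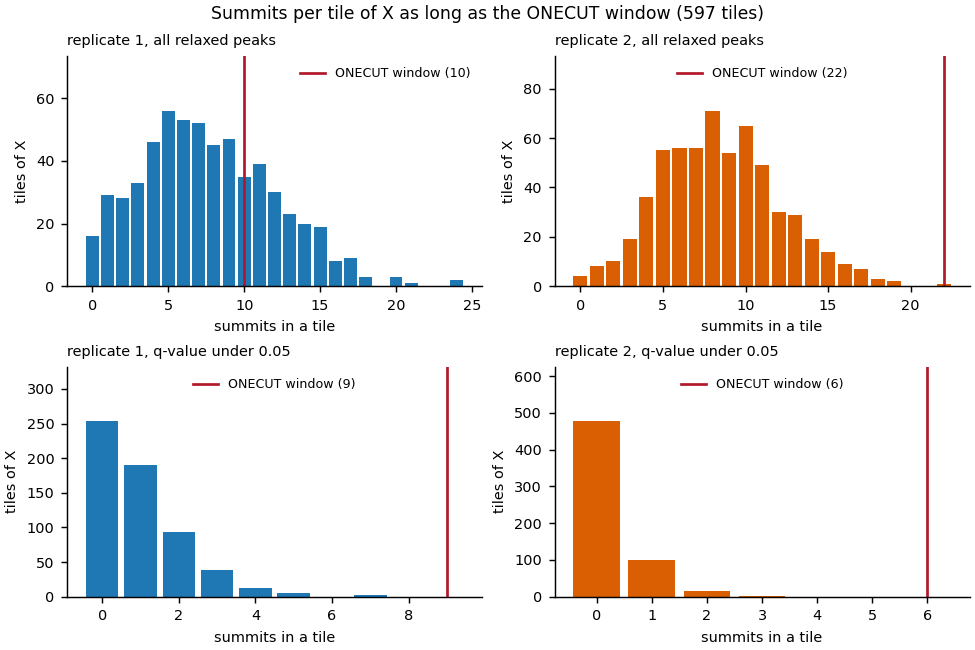
Number of tiles of X (vertical axis) by the number of summits per tile (horizontal axis), for all relaxed peaks and for peaks with a q-value under 0.05 in each replicate; the vertical line marks the window around ceh-39, ceh-21 and ceh-41. The line stands within the tiles for all peaks of replicate 1 (10), at the maximum for replicate 2 (22), and beyond every tile for peaks under the q-value threshold (9 and 6).

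Divided into 10 kb bins from the ceh-39 start, replicate 2 had 10 summits in the first bin upstream and 11 in the bin 10 to 20 kb downstream, past the end of ceh-41. The mean over 1771 bins of X was 2.88, and 0.226% and 0.0565% of bins reached those numbers. Replicate 1 had 6 and 3 summits in the same bins, with a mean over X of 2.59. The bin in between, which holds the gene run, had 1 summit in each replicate, beyond the end of ceh-41. From 20 to 30 kb downstream replicate 2 had 6 summits and replicate 1 had 0. In every other bin out to 60 kb on either side, replicate 2 had 1 to 4 summits.

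**Figure D3:**
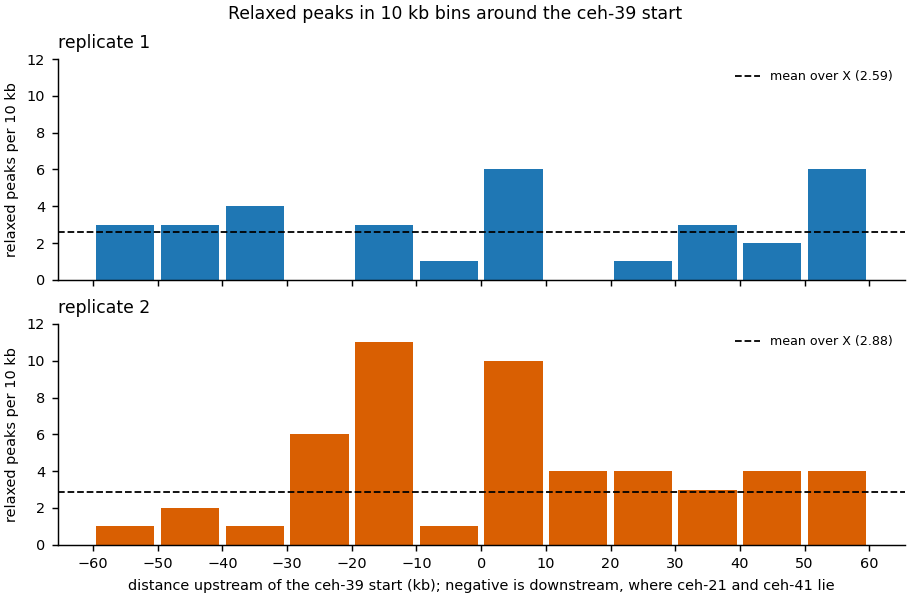
Relaxed peaks per 10 kb bin (vertical axis) in replicate 1 and replicate 2 against distance upstream of the ceh-39 start in kb, with downstream positions, where ceh-21 and ceh-41 lie, as negative values; the dashed line is the mean over all bins of X. In replicate 2 the bins with 10 and 11 summits stand on either side of a bin with 1, and in replicate 1 no bin exceeds 6.

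In replicate 1, the peaks of the X window outside the 3 IDR peaks had signal values of 20 to 38.5, below all 3. In replicate 2 some of the others ranked above 2 of the IDR peaks (ranks 515 and 719). The highest were at 1837880 (signal 36.4, rank 287, q-value 0.00873), at 1846159 (35.4, rank 311, q-value 0.00805) and at 1842227 (31.2, rank 444, q-value 0.0101). The first lay beyond T26C11.4 in intergenic sequence, the next between ceh-41 and T26C11.4, and the last in an intron of T26C11.4. In the window no summit of replicate 1 lay farther downstream than 1845260, which leaves the first and last of these without a counterpart. On the upstream side, T26C11.8 had summits of both replicates at its start and in its introns: the pooled list gave 51.3 at 1860481, 241 bp upstream of its start, and 55.5 at 1862210 in an intron.

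The X window held 7 copies of ATCGAT, or 0.237 per kb, beside 0.375 per kb over the genome. Of these 7, 1 lay within 50 bp of an IDR summit, the copy upstream of ceh-39. Over the genome 269 of 37650 copies did, or 0.714%. The copy at 1839934 had a summit of replicate 2 at a distance of 12 bp (signal 18.9, rank 2236), while the nearest summit of replicate 1 was 5321 bp away. The ceh-39, ceh-21 and ceh-41 genes themselves contained no copy.

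At the autosomal gene ceh-38 (WBGene00000459, II, 6951526 to 6955409, plus strand), the IDR peak lay over the 5′ end. Ensembl lists 24 coding transcripts of this gene, and their starts form an upstream and a downstream group around the summit at 6951683. The upstream starts lie 17 to 157 bp before the summit and the downstream ones 314 to 387 bp after it. The summit is in a 5′ UTR of the upstream group and 383 bp upstream of malt-1, which is transcribed away from ceh-38 and encodes the paracaspase MALT1 of the worm. A second copy of ATCGAT, from 6951755 to 6951760, lies in an intron 72 bp from the summit. It is shown with its neighbouring bases for comparison with the copy at the summit, and the capitals again mark the core.
ceh-38, intron, chrII:6951743-6951772: tttttcaaaattATCGATtttttgaaagtt

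The replicates placed the ceh-38 peak far apart. Its signal value was 249 in replicate 1 (rank 39, q-value 0.000225) and 17.4 in replicate 2 (rank 3043, q-value 0.514). These are 17.6 and 1.52 times the medians of the lists. The peak was in the top 0.13% of replicate 1 and the top 11.3% of replicate 2. The summits themselves agree in position, with the replicate 2 summit 8 bp from the IDR summit. Of the 63 IDR peaks with at least this pooled signal, only this 1 had a replicate 2 rank of 3043 or beyond, counting peaks that replicate 2 lacked as beyond. Among all 1244 IDR peaks, 529 were outside the strongest peaks of replicate 2 by this reckoning, but only 2 of those 63 were. The peak thus combined a high rank in replicate 1 and in the pooled list with a low rank in replicate 2. The cut at 63 was set by the ceh-38 peak itself, and peaks of lower pooled signal include some with a still lower replicate 2 rank.

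Of the 4 IDR peaks near ONECUT genes, 3 were overlapped by the strongest peaks of both replicates, beside 49.2% of all IDR peaks. The exception was the ceh-38 peak. The 49.2% is not matched for signal. The ceh-38 peak and the 2 peaks upstream of ceh-39 were among the 63 IDR peaks with at least the ceh-38 signal. Of those 63, only 2 were outside the strongest peaks of replicate 2. The 2 peaks with ATCGAT ranked higher in replicate 1 (30 and 39) than in replicate 2 (515 and 3043), and the tRNA gene peak ranked higher in replicate 2. Over the IDR list, the 217 peaks with ATCGAT had median ranks of 518 in replicate 1 and 1191 in replicate 2, and those without had 646 and 760. Peaks that a replicate lacked were left out of its medians. Replicate 2 lacked 13 peaks with ATCGAT and 49 without it, and replicate 1 lacked 6 without it. The 13 peaks with a summit in a tRNA gene had medians of 1438 and 421, and 12 of them were among the strongest of replicate 2 but 6 among those of replicate 1. Not every peak with ATCGAT ranked higher in replicate 1. The IDR peak near xol-1 held it and ranked 158 in replicate 1 and 26 in replicate 2. These are descriptions of the same lists, in which the 4 peaks are included.

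**Figure D4:**
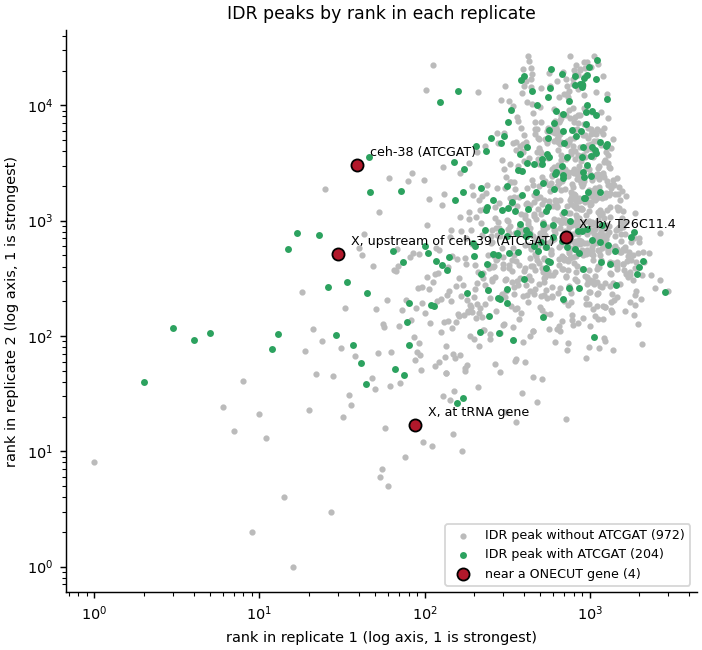
Rank in replicate 1 (horizontal, log axis) against rank in replicate 2 (vertical, log axis) of the IDR peaks found in both relaxed lists, where 1 is the strongest; green points have ATCGAT within 50 bp and red points are the 4 peaks near ONECUT genes. The ceh-38 peak (39 and 3043) stands above most points of similar rank in replicate 1, and the tRNA gene peak (88 and 17) stands near the bottom.

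The remaining peaks within 10 kb of ceh-38 were weak or belonged to its neighbours. With the peak at the 5′ end counted, there were 14 pooled summits, 13 of replicate 1 and 15 of replicate 2. ceh-38 contained 4, 2 and 3 of them, again with that peak counted. Besides the peak at the 5′ end, only a peak in flcn-1, the folliculin gene, had a q-value under 0.05. Its signal value was 45.2 in replicate 1 (rank 2043, q-value 0.000225) and 58.9 in the pooled list (rank 1947). The highest signal of replicate 2 within 10 kb of ceh-38 was 20.4 (rank 1695), also in flcn-1, with a q-value of 0.275. Among the strongest peaks of replicate 2, ceh-38 had none within 10 kb.

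ceh-48 (WBGene00015934, IV, 6812108 to 6815607, plus strand), the family member known from neurons, had relaxed peaks only. Within 10 kb there were 5 pooled summits, 4 of replicate 1 and 5 of replicate 2, and none had a q-value under 0.05. In replicate 1 the highest signal value was 23.8 (rank 4947), 1912 bp upstream of ceh-48. In replicate 2 it was 19.2 (rank 2117), in an intron of ceh-48. No peak of replicate 1 near ceh-48 was overlapped by a peak of replicate 2, so the replicates shared none of these positions. The pooled list gave both positions, with 30.9 (rank 5807) upstream and 33.0 (rank 4989) in the intron. The gene contained 1 copy of ATCGAT, in a coding exon from 6814345 to 6814350, and the nearest pooled summit was 584 bp away. It is shown as a copy of the core in a family member without a peak at it.
ceh-48, coding exon, chrIV:6814333-6814362: gagttcttcatcATCGATgcaattggataa

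ceh-49 (WBGene00017538, V, 6118333 to 6120206, minus strand) had the fewest peaks, with 4 pooled summits, 4 of replicate 1 and 3 of replicate 2 within 10 kb. All lay downstream of the gene, and the closest pooled summit was 4627 bp from it. In replicate 1 the highest was at 6110709 (signal 56.2, rank 1420, q-value 0.000225), 80 bp upstream of F17A9.4 and in an intron of cwf-19L1. In replicate 2 the highest was at 6112185 (22.3, rank 1223, q-value 0.153), in a coding exon of F17A9.5. The latter was just inside the strongest peaks of replicate 2, and neither was in the IDR list. There were 10 copies of ATCGAT within 10 kb of ceh-49 and none in the gene. Of these, the copy from 6113581 to 6113586 began 3 bp from a replicate 1 summit of low rank (15.9, rank 11620), and it is shown as the only copy there within 50 bp of a replicate summit.
ceh-49, downstream, chrV:6113569-6113598: aacaatctatttATCGATacaatattgaaa

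**Figure D5:**
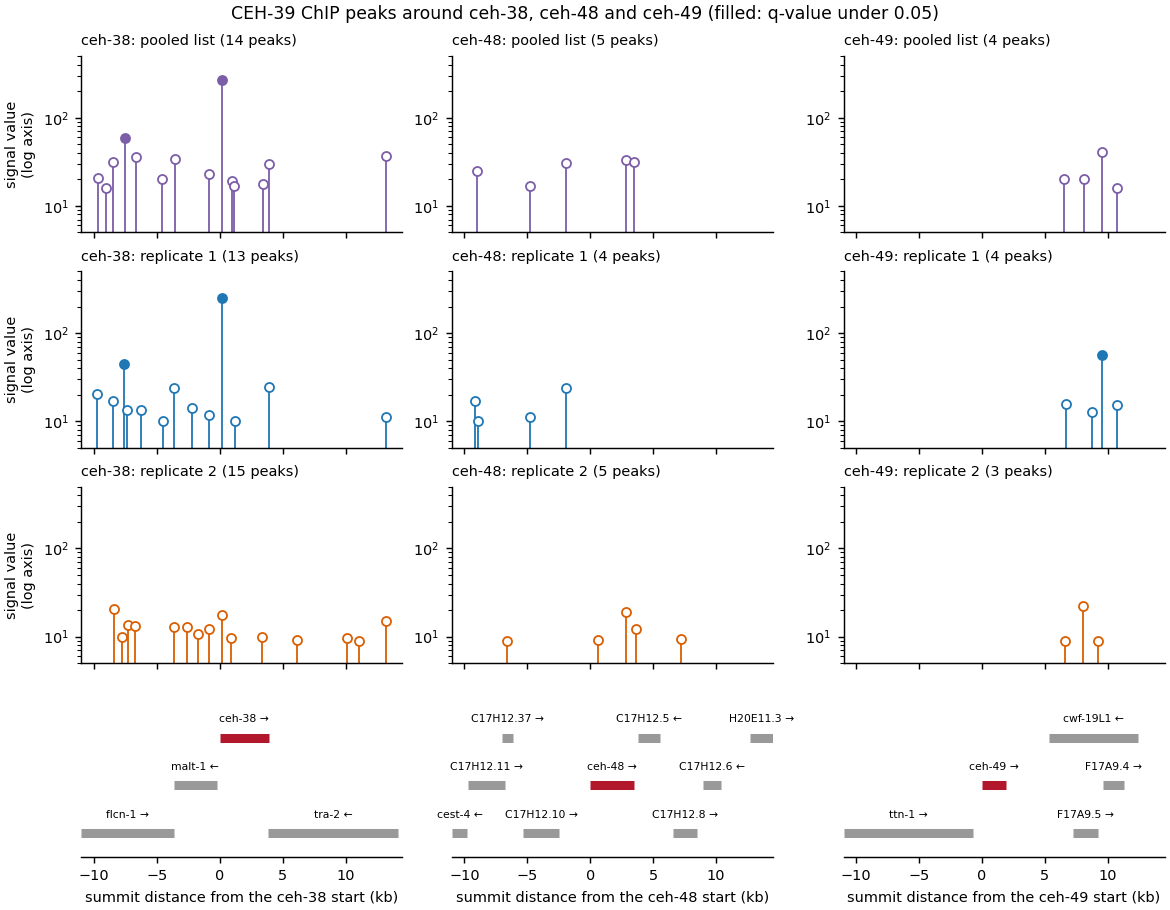
Signal value (log axis) of every peak within 10 kb of ceh-38, ceh-48 and ceh-49 in the pooled, replicate 1 and replicate 2 lists, against distance of the summit from the start of the gene in kb; filled points have a q-value under 0.05. The point at the 5′ end of ceh-38 reaches 268 in the pooled list and 249 in replicate 1 but 17.4 in replicate 2, and no point at ceh-48 or ceh-49 exceeds 56.2.

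The limit of 10 kb left out IDR peaks that other genes stood closer to. Beyond it, the nearest to the X run was 24.7 kb away (signal 91.9, rank 887). The nearest to ceh-38 was 12.4 kb away, 134 bp upstream of eif-2Bgamma, a translation initiation factor subunit gene (76.8, rank 1238). For ceh-48 the nearest was 21.5 kb away, 102 bp upstream of C17H12.2 (181, rank 192). For ceh-49 it was 17.5 kb away, 266 bp upstream of crt-1, the calreticulin gene (264, rank 70), with ranks of 95 and 51 in replicates 1 and 2. The last of these had a pooled signal close to that of the ceh-38 peak (268) and, unlike it, a high rank in both replicates.

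Other genes of the CUT class and of the X signal were read in the same way. xol-1, the target of X signal elements, had 1 IDR summit within 10 kb, with pooled rank 76, below the ranks of the ceh-38 peak (63) and of both peaks upstream of ceh-39 (53 and 49). Its peak held ATCGAT within 50 bp of the summit and ranked 158 in replicate 1 and 26 in replicate 2. In replicate 1 the ceh-38 peak ranked 39 and the 2 upstream of ceh-39 ranked 30 and 88, all above it. In replicate 2 they ranked 3043, 515 and 17, so that only the tRNA gene peak was above the xol-1 peak. The part of the transgene in the ranks at ceh-39 was not tested. The X signal elements sex-1, a nuclear receptor gene, and fox-1, which encodes an RNA-binding protein, had 2 and 1 IDR summits with best ranks of 408 and 348. Of the autosomal signal elements, sea-2 had 2 (best rank 451), and the T-box gene sea-1 had none. The CUT homeobox gene ceh-44 had 2 (best rank 214), and dve-1 had none. In all, 5 of these 7 genes had an IDR summit within 10 kb, beside the 26.9% of all protein-coding genes given above. That share is not matched for gene length. Long genes such as sea-2 (3950377 to 3972140), fox-1 and ceh-44 have wider windows.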

How the data were processed

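The data were peak lists of 2 biological replicates, 8 lists in the narrowPeak layout, 4 for ce11 and 4 for ce10. The description files deposited with them say that a replicate's relaxed list was called on its own alignments against a control. They say that both replicates were combined, with that control, for the pooled list, and that the IDR list came from these lists. The control was not analysed here. Aligner, peak caller and versions were not given in the sources used here. Column 7, the signal value, is the authors' own, as deposited, and was used only to rank, filter and describe peaks within a list. The authors' −log10 q-value (column 9) gave the q-values printed. Depth is unknown, and no interval that needs it is given.

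Summits in ce11 were placed on gene models of Ensembl release 115 (WBcel235). ceh-44 was placed by a RefSeq table of the same assembly. Copies of ATCGAT, and of ATTGAT on either strand, were searched in the RefSeq genome. Overlap of peaks needed at least 1 bp. Transcripts other than protein-coding ones were not counted as starts. Tiles of X that overlapped the ONECUT window were left out.

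The genes, lists and comparisons were chosen with earlier results of these data known, and no test was made. Named genes were the 6 members, the genes with starts nearest to their IDR peaks, 2 other CUT genes, and 4 signal elements with xol-1. Other neighbours (malt-1, flcn-1, tra-2, F17A9.4, F17A9.5, cwf-19L1, eif-2Bgamma, C17H12.2 and crt-1) were named after their peaks were seen. Alternatives changed the window, peak set, overlap rule, motif width and build. The functions were tested on simulated data. Python 3.11.15, numpy 2.4.6, pandas 2.3.3 and matplotlib 3.10.9 were used.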

Additional observations from a re-analysis of the deposited data

How the results depend on the processing

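Of 42 alternatives, 33 left the count or rank within 1.5 times its value. The 4 IDR peaks near ONECUT genes became 8 with a window of 20 kb and 9 with the 2488 strongest pooled peaks. From the strongest peaks of either replicate alone they were 4 to 8: the 8 came without replicate 1, whose absence also replaced ceh-38 by ceh-49 among the 4 genes. At the X locus, the 10 relaxed peaks of replicate 1 became 3 among its strongest, and the 22 of replicate 2 became 13 within 5 kb, 6 under a q-value of 0.05 and 7 among its strongest. The 2 peaks with ATCGAT became 1 within 25 bp, and 1 to 2 with a replicate left out, the 1 again without replicate 1. Those last settings were chosen after seeing the data.

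No paired analysis was possible because there was 1 group. Ranking by p-value was not run, since that column holds no p-values. IDR ranks were the same in ce10. Replicate 2 ranks were matched to ce10 at 1 of the 4 peaks, where 719 became 729. Depth, the control and the transgene were not analysed here, which limits what the X peaks show.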

Other observations

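The sex-determination gene tra-2 (II, 6955384 to 6965673, minus strand), which encodes a membrane receptor, overlaps the end of ceh-38 with its own end and was looked at after its peaks were seen. It contained no IDR summit. Its 3 summits of replicate 1 reached a signal value of 24.7 (rank 4627), at 6955414 in its 3′ UTR. Its 4 summits of replicate 2 reached 15.2 (rank 5065), at 6964690 in a coding exon. The pooled list had 3, with a highest signal value of 37.0 (rank 3937). The gene's 2 copies of ATCGAT, from 6958690 and from 6961659, were 3276 and 3057 bp from the nearest pooled summit. The latter was 45 bp from a replicate 2 summit of low rank (signal value 9.69, rank 21468), and the nearest replicate 1 summit was 3073 bp away.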
